A study of Danio rerio with 12 samples.

Results

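The loci described here carry no gene name and lie on the strand opposite a protein-coding gene of the zebrafish genome. A locus was taken where its identifier was a running number in place of that of an annotated gene. Loci with such a number can still lie over an annotated gene. It had to overlap a protein-coding gene on the other strand and no annotated gene on its own strand. Its mean over the 12 libraries had to reach 1 FPKM (fragments per kilobase of exon, scaled by a size factor of each library). There were 316 such loci, out of 984 in this arrangement at any level, 15524 loci without a name and 50640 genes and loci in all. Of those 50640, 16223 had a mean of at least 1 FPKM and were tested. The mean level chose the loci and is given as a description. Differences between ages and the level of the partner were not part of the rule, which was set with earlier results of these data known. A locus high at 1 age only can still reach this mean through that age. Its change is then not independent of the choice. Hearts of zebrafish (Danio rerio) aged 6, 12, 24 and 36 months were sequenced, with 3 libraries of heart RNA at each age. No treatment or genetic change is given for any group. The labels do not state the strain, the sex, or whether a library came from 1 fish or a pool, and the spread behind each p-value is that of these libraries, which may be technical.

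A natural antisense transcript is an RNA copied from the strand opposite a gene. Such pairs can meet tail to tail, head to head, or with one inside the other. Antisense RNAs are known in several organisms to lower, raise or leave unchanged the RNA of the gene they face, and many are copied from a promoter that the pair shares. In the heart, antisense RNAs over myosin heavy chain genes are known from mammals. The loci are named below by the coding gene they face and by their position on GRCz11. How they were given their strand is not stated in the sources used here.

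The deposited values carry a limit on strand. A gene or locus lying wholly under another whose exon bases form 1 unbroken stretch had 0 reads in all 12 libraries in 121 of 121 cases on the opposite strand. The same held in 95 of 95 cases on the same strand, against 11262 of all 50640 genes and loci (22.2%). Covered genes were thus at 0 on either strand alike, so the deposited levels are not shown to be resolved by strand. The strand setting of the counting is not stated in the sources used here. Without strand, reads from the stretch that a locus and its partner share cannot be told apart. In 18 loci that stretch is 3 or 4 bases long. Of the loci without a name, 5324 had no strand, and in all of them the exon length equalled the span. None of these entered the 316.

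The libraries held 7333060 to 11145869 reads in genes, and 1 read on a kilobase of exon was worth 0.0878 to 0.136 FPKM. The heart markers myl7, nppa, cmlc1 and nkx2.5 had means of 121, 4731, 1022 and 127 FPKM, while vmhc, tnnt2a, tnnc1a, ryr2b, gata4 and tbx5a lay below 0.2 FPKM. Of these, tnnt2a and ryr2b are coding partners of loci described here. Libraries differed in markers of other tissues. The summed level of the liver markers was 532 FPKM at 12 months replicate 2 and 157 at 6 months replicate 1, and 0.474 to 48.3 elsewhere. That of the skeletal muscle markers was 42.7 FPKM at 36 months replicate 2 and 1.19 to 2.70 elsewhere. This rested on mylpfa, which reached 41.3 FPKM, while acta1b, tnnt3a and myog stayed at or below 1.88. That of the gill and skin markers was 622 FPKM at 36 months replicate 3 and 157 to 274 elsewhere. It was krt4 almost alone, as krt5 was at 0 in all libraries and epcam reached 0.525 FPKM at most. Neither high value was shared by the other markers of its tissue. The summed level of the blood markers ran from 1181 to 6611 FPKM. It was hbba2 almost alone, as hbaa1 was at 0 in all libraries and hbba1 reached 7.91 FPKM at most. All libraries of 12 months (5692 to 6611 FPKM) lay above those of the other ages (5591 at most). The same held for the summed heart markers, at 6877 to 8505 FPKM against 6600 at most. What part these differences had in the results at 12 months was not tested. In whole hearts, fewer cells of a type and less RNA per cell cannot be told apart.

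Most of the 316 loci were small and lay within the gene they face. The partner enclosed the locus completely in 211 cases, the locus crossed the 3′ end of the partner in 56 (tail to tail), crossed its 5′ end in 29 (head to head), and enclosed the partner in 20. Spans ran from 207 to 390945 bases with a median of 3701, and the median exon length was 1240 bases. In 236 loci the exon length was shorter than the span, so the locus was spliced, and in 80 it was not. The 316 loci faced 296 distinct coding genes; 35 loci shared their partner with another locus, and 38 faced more than 1 coding gene. For those, the partner is the gene with the longest overlap.

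The length of overlap fell into separate classes. In 18 loci it was 3 or 4 bases (5 and 13 loci), and the next shortest overlap was 57 bases. Of these 18, 16 crossed the 3′ end of the partner and 2 crossed the 5′ end. They include the loci beside lmod2a, wnt2bb, ak1, pik3c2b and srd5a2a. These loci meet the rule for antisense loci by a few bases, and their correlations are also given apart from the others.

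Levels were low. The mean over the libraries was between 1 and 2 FPKM in 123 loci, between 2 and 10 in 164, and 10 or more in 29, of which 5 reached 100. The median was 2.54 FPKM, against 3.98 over all tested genes and loci. A locus had a median of 31.8 reads per library at the midpoint of the 316, 75 loci had a median under 10 reads, and 247 had reads in every library. Together the loci took 0.445% to 0.842% of the reads of a library, and 0.381% to 0.640% without the highest locus. At 12 months replicate 2 the share was 0.831% with that locus and 0.427% without it. Just inside the threshold were the loci opposite znf993 (1.02 FPKM), fbxw4 (1.02) and znf1070 (1.02), and just outside were those opposite ppp1r12a (0.997), emilin2b (0.988) and cgna (0.975).

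A protein domain was listed for 51 of the 316 loci in the deposited annotation. In 15 the name of the domain matched a list for mobile elements, such as an integrase core or a reverse transcriptase. That list missed an envelope polyprotein at znf993. It also left out a domain of unknown function at CABZ01071639.1, which stands beside a reverse transcriptase in the locus at anxa3b. None of the 15 passed the limma test at 36 against 6 months, where 9.49% of all 316 loci did, but the locus at CABZ01071639.1 passed. At that share few of 15 loci would pass. The median difference of the 15 was 0.10 on the log2(FPKM + 1) scale. One of the 15 passed the F test across the ages, and it is described below.

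The locus with the highest level, at pak6b, spanned 31527 bases of chromosome 20 (53748317 to 53779843, minus strand, GRCz11). It crossed the 3′ end of this gene of a p21-activated kinase, and also overlapped myh6, the atrial myosin heavy chain of zebrafish. Its levels were 259, 178 and 178 FPKM at 6 months, 633, 1145 and 453 at 12 months, 378, 410 and 296 at 24 months, and 532, 222 and 535 at 36 months. All libraries at 12 and 24 months lay above those of 6 months, while those of 36 months overlapped both. The difference at 12 against 6 months was 1.77 (SE 0.38) on the log2 scale and did not pass (limma adjusted p = 0.156), nor did the F test across the 4 ages (adjusted p = 0.0748).

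Next in level were the locus inside hrsp12, with an integrase domain and 69.4 to 658 FPKM, and the one around si:dkey-261h17.1, with 179 to 258 FPKM. The fourth lay inside tmem107, a gene of the ciliary transition zone, and carried a WD repeat domain. It had 81.7, 87.5 and 67.9 FPKM at 6 months, 88.3, 90.6 and 48.6 at 12 months, 131, 148 and 144 at 24 months, and 156, 137 and 152 at 36 months. Every library of 24 and 36 months lay above every library of 6 and 12 months. The rise at 36 against 6 months was 0.91 (SE 0.21) on the log2 scale (limma adjusted p = 0.0274), a call lost without 6 months replicate 2 or 3 or any 1 library of 36 months (adjusted p up to 0.0878), and with no filter on low values (0.0880). tmem107 itself was at 3.33 to 5.98 FPKM at 6 months and 3.54 to 4.54 at 36 months, a difference of -0.06 (SE 0.39, limma adjusted p = 0.937). The loci beside srd5a2a, in rassf4, beside lmod2a and at the start of pigb completed the 8 highest, and none of these 4 passed the F test. The age means were 95.8 to 114 FPKM at srd5a2a, 51.7 to 89.0 at rassf4 and 55.5 to 71.0 at pigb, and the locus beside lmod2a is described below.

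**Figure D1:**
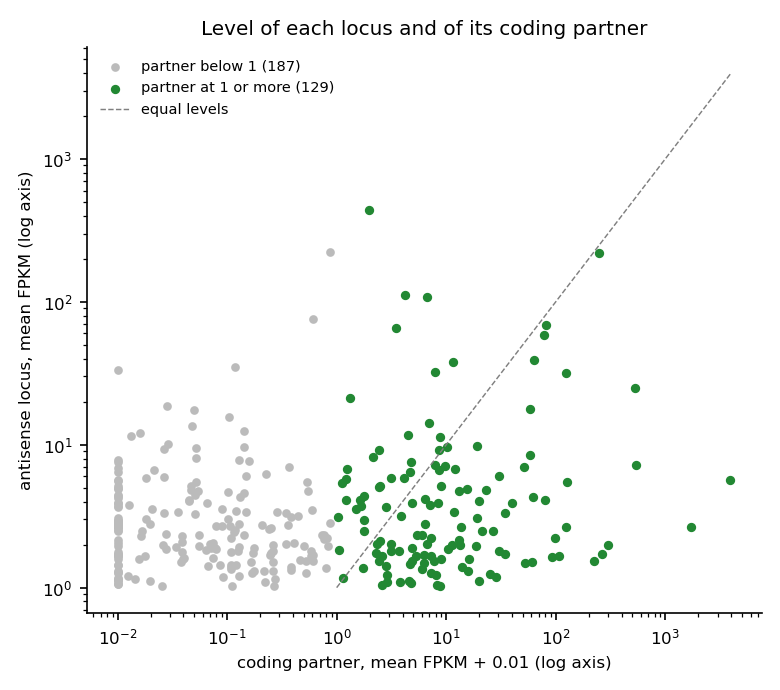
Mean FPKM of each of the 316 antisense loci (vertical, log axis) against that of its coding partner (horizontal, log axis, 0.01 added so that 0 can be shown), 1 point per locus. In 187 the partner lay below 1 FPKM (grey), and of the 129 with a partner at 1 FPKM or more (green) 33 lie above the dashed line of equal levels.

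The coding partner was often hardly measured. It lay below 1 FPKM for 187 of the 316 loci, and 48 of the 296 partners were listed at 0 in all 12 libraries. In 188 loci the partner had another locus without a name on its own strand, and so had 139 of the 187 with a low partner. Since covered genes were listed at 0 on either strand, a partner near 0 is not shown to be silent. Of the 129 loci with a partner at 1 FPKM or more, 33 were above the partner in FPKM, 5 of them at least 10 times, and 27 were at 10% of it or less. The median ratio of locus to partner was 0.387, from levels that are not shown to be resolved by strand.

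The first comparison was between the ends of the age range. At 36 against 6 months, 12 loci were higher and 18 lower, and 286 did not pass (limma on log2(FPKM + 1), Benjamini-Hochberg adjusted p under 0.05 over all 16223 tested). That is 9.49% of the loci, against 8.25% of all genes and loci tested, so the share was near the background. By direction it was 3.80% higher against 3.95%, and 5.70% lower against 4.30%. The median difference was -0.09 on the log2 scale, against 0.00 over everything tested. The values of both ages did not overlap in 78 loci (24.7%), against 27.8% of all tested, and 29 of the 30 that passed were among them. The count was 10 without 36 months replicate 1 or 2 and 13 without replicate 3, 15 and 12 without 6 months replicates 2 and 3, and 18 without 24 months replicate 1 or 3. Without any 1 of the other 5 libraries it was 20 to 34. Fold changes on this scale understate those of low loci.

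**Figure D2:**
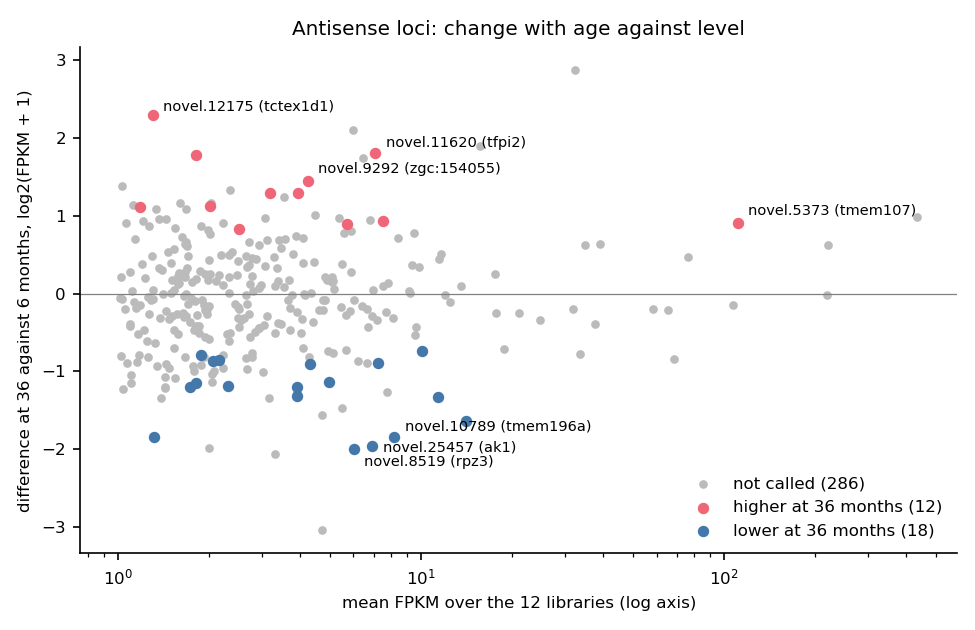
Difference at 36 against 6 months on the log2(FPKM + 1) scale (vertical) against mean FPKM over the 12 libraries (horizontal, log axis) for each of the 316 antisense loci. Of the 12 that were higher and the 18 that were lower, the locus inside tmem107 is the 1 above 100 FPKM.

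The largest rise that passed was in a spliced locus of 247 exon bases inside tctex1d1 (chromosome 2, 14592997 to 14598582, plus strand). Its partner belongs to the family of dynein light chains. The locus had no read at 6 months, 0, 1.38 and 1.42 FPKM at 12 months, 0.413, 0 and 0 at 24 months, and 3.31, 6.32 and 2.80 at 36 months. Every library of 36 months lay above every other library, but the highest of them rested on 14 reads. The locus reached a mean of 1 FPKM only through the libraries of 36 months, so its rise is not independent of the choice. The difference was 2.30 (SE 0.38) at 36 against 6 months (limma adjusted p = 0.00842), and 2.14 (SE 0.38) at 36 against 24 months (adjusted p = 0.0305). The first kept its call without any 1 library, and the second was lost without any 1 library of 24 or 36 months (adjusted p up to 0.118), with a pseudocount of 0.1, no filter, the replicate number as a block, or voom on the recovered reads (0.0648 to 0.108). tctex1d1 was at 0 to 0.418 FPKM.

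The locus of 436 exon bases inside zgc:154055 (chromosome 17, 25383140 to 25383611, minus strand) changed in an uneven course. It had 1.31, 2.76 and 2.14 FPKM at 6 months, 4.24, 4.43 and 6.64 at 12 months, 1.87, 2.06 and 3.56 at 24 months, and 7.49, 8.19 and 6.09 at 36 months. The libraries of 12 and 36 months lay above all those of 6 and 24 months. The rise at 36 against 6 months was 1.45 (SE 0.24, limma adjusted p = 0.00877), and it kept its call without any 1 library. The difference at 12 against 6 months was 1.0 (SE 0.24, adjusted p = 0.211). The partner was listed at 0 throughout, and another locus without a name lay on its strand.

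Another locus lay inside hlfa, which encodes a PAR bZIP transcription factor driven by the circadian clock (chromosome 3, 11619980 to 11621370, plus strand). Its levels were 1.09, 2.08 and 2.39 FPKM at 6 months, 1.77, 1.96 and 1.18 at 12 months, 6.46, 5.69 and 6.45 at 24 months, and 4.70, 8.35 and 5.10 at 36 months. The libraries of 24 and 36 months all lay above those of 6 and 12 months, with 6 to 39 reads in a library. The rise was 1.30 (SE 0.23) at 36 against 6 months (limma adjusted p = 0.0113), 1.36 at 24 against 6 (adjusted p = 0.0310), and 1.46 (SE 0.23) at 24 against 12 (adjusted p = 0.0236). The call at 36 against 6 months held without any 1 library and was lost when only these ages were fitted (adjusted p = 0.0718). That at 24 against 12 was lost without 12 months replicate 1 or 2 or any 1 library of 24 months (adjusted p up to 0.103), and with no filter, the replicate number as a block or voom on the recovered reads (0.0879, 0.0505 and 0.0710). That at 24 against 6 was lost without 6 months replicate 2 or 3, 12 months replicate 1 or any 1 library of 24 months (up to 0.126), and under those 3 settings or when only these ages were fitted (0.0573 to 0.116). Its F test had an adjusted p of 0.00849.

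hlfa itself was at 25.8, 29.6 and 45.3 FPKM at 6 months and 60.6, 43.2 and 39.7 at 36 months. These values overlapped, and the difference was 0.52 (SE 0.23, limma adjusted p = 0.185). The locus rose more than hlfa by 0.78 (SE 0.28), which did not pass over the 1027 pairs tested (adjusted p = 0.118).

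A further one lay inside cacng5a, a gamma subunit gene of voltage-dependent calcium channels (chromosome 6, 19371311 to 19372397, minus strand). It stood at 0.716, 0.544 and 0.781 FPKM at 6 months, 0, 1.37 and 0.132 at 12, 0.768, 2.17 and 0.584 at 24, and 5.53, 3.53 and 5.56 at 36 months. The libraries of 36 months lay above all others. Only through them did this locus reach a mean of 1 FPKM, so its rise is not independent of the choice. The rise was 1.79 (SE 0.36) at 36 against 6 months (limma adjusted p = 0.0164) and 2.06 (SE 0.36) at 36 against 12 (adjusted p = 0.0162). The first was lost without 36 months replicate 1 or 3 (adjusted p = 0.0548 and 0.0524), and the second without these or 12 months replicate 1 (up to 0.0699). With a pseudocount of 0.1 the first gave an adjusted p of 0.0763, and it was also lost with no filter. The second was lost with no filter or when only these ages were fitted.

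**Figure D3:**
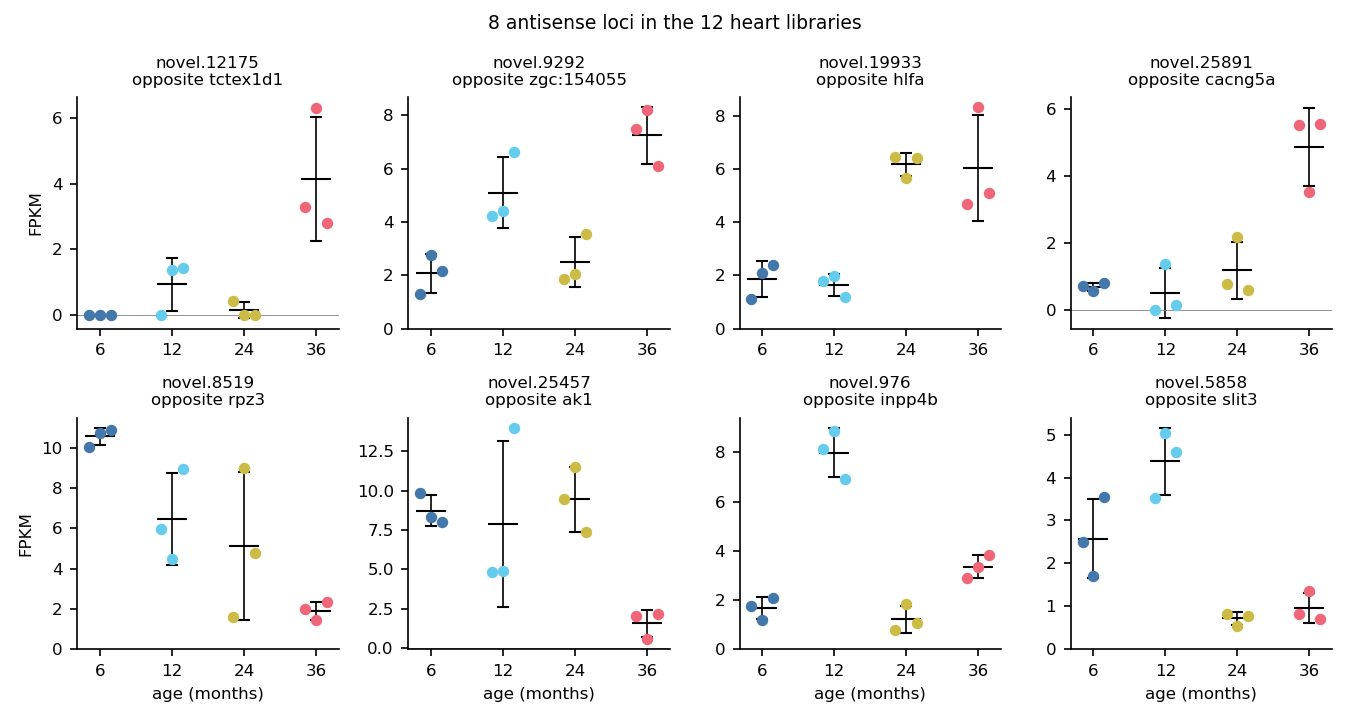
FPKM of 8 antisense loci at 6, 12, 24 and 36 months of age. Each point is 1 library, and the bars give the mean and the SD of the 3 libraries of an age. The loci at tctex1d1 and cacng5a are highest at 36 months, that at hlfa is high at 24 and 36 months, those at rpz3 and ak1 are lowest at 36 months, that at inpp4b peaks at 12 months, and that at slit3 is low at 24 and 36 months.

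Among the loci that fell, one spanned 30493 bases across the 5′ end of rpz3, a gene of the rapunzel family, and also overlapped rpz6 (chromosome 16, 46467291 to 46497783, minus strand). It had 10.1, 10.7 and 10.9 FPKM at 6 months, 5.98, 4.47 and 8.95 at 12, 1.61, 8.97 and 4.76 at 24, and 1.98, 1.43 and 2.32 at 36 months. The libraries of 6 months lay above all others, and those of 12 and 24 months were widely spread. The fall at 36 against 6 months was -2.00 (SE 0.39) on the log2 scale (limma adjusted p = 0.0155), and it was lost without 36 months replicate 2 (adjusted p = 0.0554) and with no filter on low values (0.0645). Another locus without a name, on the strand of rpz3, was also lower, at 2.82 to 2.90 FPKM at 6 months and 0.887 to 1.26 at 36 months. Its r with the antisense locus was 0.952 (permutation adjusted p = 0.00187).

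Another that fell met the 3′ end of ak1, the gene of adenylate kinase 1, by 4 bases (chromosome 5, 70924324 to 70925992, plus strand). It had 9.82, 8.32 and 8.01 FPKM at 6 months, 4.86, 4.88 and 13.9 at 12, 9.45, 11.5 and 7.39 at 24, and 2.03, 0.625 and 2.15 at 36 months. The libraries of 36 months lay below all others. The fall was -1.96 (SE 0.36) at 36 against 6 months (limma adjusted p = 0.0127), a call kept without any 1 library and lost with no filter on low values (adjusted p = 0.0512). Against 12 and 24 months it was -1.68 (adjusted p = 0.0347) and -2.05 (adjusted p = 0.0311). Both of these were lost without any 1 library of 36 months (adjusted p up to 0.109), the first also without 12 months replicate 1 or 2 or 24 months replicate 1, and the second without any 1 of 24 months. With no filter, the replicate number as a block or voom on the recovered reads both were lost (0.0609 to 0.118), the first also when only these ages were fitted (0.0979). ak1 was listed at 0 in all libraries, and another locus without a name lay on its strand.

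The remaining named loci at 36 against 6 months had weaker support. Those that rose were at tfpi2, pik3c2b, zgc:173593 and si:dkey-262k9.4. The last of these reached a mean of 1 FPKM only through the libraries of 36 months. Those that fell were at BX005399.2, tmem196a, TMEM269, gprc5c, ugp2a and tmem91. Their limma adjusted p-values lay between 0.0177 and 0.0469, and each call was lost without any of 3 to 10 libraries taken 1 at a time. The locus in BX005399.2 had 1.28, 7.57 and 1.40 FPKM at 6 months and 0 in each library of 36 months. Over all 12 libraries it held 14 reads at most in 1 library.

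Shares by position were read only as descriptions. At 36 against 6 months, 7.11% of the 211 loci inside a gene passed, 15.0% of the 20 that enclosed one, 10.3% of the 29 across a 5′ end and 16.1% of the 56 across a 3′ end. Of the 236 spliced loci 12 were higher and 14 lower, and of the 80 unspliced ones 0 were higher and 4 lower. Of the 129 loci with a measured partner 9.30% passed, and of the 187 others 9.63%. Over the same test, 8.18% of 1125 stranded loci apart from annotated genes passed, and 9.40% of 2106 loci over a gene of their own strand.

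Few loci passed between neighbouring ages. At 12 against 6 months 1 locus was higher and 0 lower (0.316%, against 0.0185% of all tested, 0.00616% higher and 0.0123% lower). At 24 against 6 months 4 were higher and 0 lower (1.27%, against 0.709%, by direction 0.425% and 0.284%). At 24 against 12 months 1 was higher and 2 lower (0.949%, against 0.715%, by direction 0.487% and 0.228%), at 36 against 12 months 7 were higher and 4 lower (3.48%, against 3.14%, by direction 1.78% and 1.36%), and at 36 against 24 months 3 were higher and 1 lower (1.27%, against 1.12%, by direction 0.481% and 0.635%). A linear trend in months passed in 32 loci, 12 rising and 20 falling (10.1%, against 10.4%, by direction 5.21% and 5.23%). The F test across the 4 ages passed in 19 (6.01%, against 5.28%). Leaving out 1 library moved several of these counts. The count fell to 0 at 24 against 6 months without any 1 library of 24 months, at 24 against 12 without 12 months replicate 1, and at 36 against 24 without 24 months replicate 1 or 2 or 36 months replicate 1 or 3. At 12 against 6 months it was 2 without 12 months replicate 3, 1 without 24 months replicate 2 or 3, and 0 without any other library. Without 6 months replicate 1 the counts were 7, 6 and 8 at 24 against 6, 24 against 12 and 36 against 24 months. At 36 against 12 months 21 passed without 6 months replicate 1, 1 and 4 without 12 months replicates 1 and 2, and 4, 6 and 4 without 36 months replicates 1, 2 and 3. The trend passed in 20 and 19 without 6 months replicates 2 and 3, and in 17 and 20 without 36 months replicates 1 and 2. The F test passed in 36 without 6 months replicate 1, in 10 without 6 months replicate 3 or 12 months replicate 1, in 10, 12 and 11 without 24 months replicates 1, 2 and 3, and in 7, 7 and 8 without those of 36 months. In all, 36 loci passed in at least 1 pair of ages and 280 in none. The share of all tested that did so was not computed, so this count has no background beside it. FPKM did not overlap between the ages in 39 loci at 12 against 6 months (background 13.0%), 67 at 24 against 6 (20.5%), 72 at 24 against 12 (23.1%), 85 at 36 against 12 (29.2%) and 78 at 36 against 24 (25.4%).

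The 1 locus called at 12 against 6 months, opposite inpp4b, also had the smallest p-value of all 316 in the F test. It lay inside that gene, which encodes a phosphatase of inositol lipids, with an exon length of 6389 bases and a listed RNase H domain, which reverse-transcribing elements carry (chromosome 1, 52541859 to 52548288, minus strand). Its levels were 1.76, 1.19 and 2.10 FPKM at 6 months, 8.15, 8.89 and 6.91 at 12, 0.766, 1.81 and 1.05 at 24, and 2.88, 3.34 and 3.81 at 36 months. The libraries of 12 months stood above all others, those of 36 months came next, and 6 and 24 months overlapped at the bottom. The counts behind it were 48 to 507 reads in a library.

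The F test for the locus at inpp4b gave a limma adjusted p of 0.00266. It rose by 1.75 (SE 0.20) at 12 against 6 months (adjusted p = 0.0310), fell by 2.04 at 24 against 12 (SE 0.20, adjusted p = 0.00704), and rose by 1.0 at 36 against 24 (adjusted p = 0.0471). The rise at 12 months was lost without any 1 of the libraries except 12 months replicate 3 and 24 months replicates 2 and 3 (adjusted p up to 0.187). The fall at 24 months was lost without 12 months replicate 1 (adjusted p = 0.0666). The rise at 36 months was lost without any 1 library except 6 months replicates 1 and 2 (up to 0.169). The rises at 12 and 36 months were also lost with a pseudocount of 0.1, no filter, the replicate block, eBayes without trend or only the ages compared (up to 0.279 and 0.0938), and that at 36 months with voom (0.0617). inpp4b was at 0 to 0.0552 FPKM, and another locus without a name lay on its strand.

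A locus of 579 bases lay inside slit3, the gene of a secreted guidance ligand (chromosome 14, 24262915 to 24263493, plus strand). It had 2.49, 1.70 and 3.55 FPKM at 6 months, 3.51, 5.03 and 4.59 at 12, 0.820, 0.543 and 0.780 at 24, and 0.822, 1.35 and 0.697 at 36 months. The libraries of 24 and 36 months lay below those of 6 and 12 months, at 3 to 26 reads in a library. The fall was -1.46 (SE 0.22) at 36 against 12 months (limma adjusted p = 0.00980), kept without any 1 library, and -1.64 (SE 0.22) at 24 against 12 (adjusted p = 0.0154). The latter was lost without 12 months replicate 1 or 2 or 24 months replicate 1 or 2 (up to 0.0701) and with voom (0.0527). At 36 against 6 months the difference was -0.85 (adjusted p = 0.0423), a call lost without any 1 library except 6 months replicate 2 (up to 0.132), and with no filter, the replicate block, voom or only the ages compared (up to 0.143). slit3 itself went from 12.3 to 15.3 FPKM at 6 months to 7.69 to 10 at 36 months, a difference of -0.58 (SE 0.20) that did not pass (adjusted p = 0.0918).

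Another 3 loci were named for other pairs of ages. The locus around zgc:173593 had 0, 0.634 and 0 FPKM at 6 months, 1.08, 2.99 and 3.0 at 12, 3.22, 3.08 and 5.44 at 24, and 1.43, 1.76 and 1.52 at 36 months. It was highest at 24 months, with a rise of 2.03 (SE 0.31) over 6 months (limma adjusted p = 0.0183). The locus in si:dkey-19a16.1 rose by 1.57 over the same interval (SE 0.29, adjusted p = 0.0399). The locus inside the cytochrome P450 gene cyp2aa9 had 5.92, 7.70 and 2.38 FPKM at 12 months and 20.8, 76.4 and 12.9 at 36 months (adjusted p = 0.0484). Its highest value was in 36 months replicate 2, the library with a high level of the muscle marker mylpfa, whose part in the result was not tested. These 3 calls were lost without any of 4, 9 and 10 libraries taken 1 at a time.

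Loci facing genes of heart function were grouped by the role of the partner, as read from its gene symbol. None of 10 loci opposite sarcomere and cytoskeleton genes passed at 36 against 6 months, and their median difference was -0.05. Both loci inside tnni1b, a slow troponin I gene, were low at 12 months. The shorter, of 1759 bases, had 10.2, 11 and 9.67 FPKM at 6 months, 1.65, 1.34 and 7.61 at 12, 11.9, 14.2 and 9.54 at 24, and 10.1, 11.9 and 19.0 at 36 months. The longer, of 4485 bases, had 4.43, 3.50 and 2.97 at 6 months, 0.971, 1.1 and 2.39 at 12, 2.40, 2.32 and 1.73 at 24, and 3.83, 4.27 and 6.92 at 36. For both, the libraries of 12 months lay below those of 6 and 36 months. The rise at 36 against 12 months was 1.92 (SE 0.42, limma adjusted p = 0.0355) for the shorter and 1.28 (SE 0.25, adjusted p = 0.0244) for the longer. Both calls were lost without 12 months replicate 1 or 2 or 36 months replicate 2 or 3, that of the shorter also without 36 months replicate 1 or any 1 library of 24 months (adjusted p up to 0.132 and 0.0962), and both with no filter, the replicate block or only the ages compared (up to 0.124 and 0.0787). Both loci were highest in 36 months replicate 3, the library with the highest level of krt4, whose part in the result was not tested. Among the low libraries of both was 12 months replicate 2, the library highest in liver markers. The part of that library was not tested either. tnni1b had 7.81, 11.4 and 14.9 FPKM at 12 months, below the 18.3 to 23.8 of 6 months and overlapping the 14.8 to 23.3 of 36 months. The 2 loci share this partner and are not independent of each other.

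The locus inside the tropomyosin gene tpm4a is an example of a faint locus against an abundant partner. It had 4.59 to 8.62 FPKM at 6 months and 2.66 to 4.43 at 36 months, while tpm4a had 3204 to 4282 and 3312 to 4334. The difference of the locus was -0.73 (SE 0.21, limma adjusted p = 0.0606).

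The group of calcium handling and ion channels, drawn by gene symbol, held 9 loci. It took in those at the sodium pump genes atp1a1a.2 and atp1b2b, and at ryroxd1, which is not a calcium channel gene. Of the 9, 1 was higher at 36 against 6 months, that at cacng5a described above, and 1 was lower. The latter crossed the 5′ end of ryr2b, a gene of the calcium release channel of the sarcoplasmic reticulum. It had 14.9, 11.9 and 14.4 FPKM at 6 months, 8.35, 8.70 and 8.90 at 12, 9.60, 10.3 and 9.93 at 24, and 5.27, 10.1 and 8.75 at 36 months. The libraries of 6 months lay above all others, and the fall was -0.74 (SE 0.19, limma adjusted p = 0.0363). This call was lost without any 1 library except 12 months replicate 3 and 36 months replicate 2 (adjusted p up to 0.101), and with no filter, the replicate block or only the ages compared (up to 0.151). The locus also faced actn2b, and ryr2b was at 0 to 0.0518 FPKM. The locus inside atp2a2a, the calcium pump of the sarcoplasmic reticulum, was named after its values were seen. It had 0.999, 0.475 and 7.97 FPKM at 6 months and 0.268, 0.659 and 0.682 at 36 months, which overlapped. atp2a2a had 977, 1299 and 1401 FPKM at 6 months and 2078, 2308 and 1972 at 36 months, a rise of 0.80 (adjusted p = 0.0208).

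The other groups held few calls at 36 against 6 months. Of 12 loci opposite transcription factor and clock genes 1 was higher (at hlfa) and 0 lower. Of 7 opposite genes of matrix, adhesion and vessels 0 were higher and 1 lower (at slit3). Of 13 opposite signalling genes 1 was higher (at pik3c2b), and of 9 opposite genes of protein folding and turnover 1 was lower. The last lay inside trim55b, a muscle ubiquitin ligase gene. It had 2.44, 3.72 and 2.62 FPKM at 6 months and 1.06, 1.28 and 1.07 at 36 months, which did not overlap (difference -0.86, SE 0.19, limma adjusted p = 0.0239). This call was lost without 6 months replicate 2 or 3 or any 1 library of 36 months (up to 0.0807), or when only these ages were fitted (0.0868). None of 3 opposite mitochondrial and energy genes, 4 opposite chromatin and RNA genes and 4 opposite blood and immune genes passed, among them the loci beside acss2l (-0.92, limma adjusted p = 0.0600) and in dhx36 (-0.96, adjusted p = 0.0533). These shares stand against 8.25% of everything tested.

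The second comparison asked whether a locus and its partner changed alike. For the 129 loci with a measured partner, locus and partner both passed at 36 against 6 months in 2 pairs, in the same direction. Only the locus passed in 10, only the partner in 10, and neither in 107. The pairs in which both passed were those at pik3c2b and CABZ01071639.1. The former locus met the 3′ end of pik3c2b, a phosphoinositide 3-kinase gene, by 4 bases (chromosome 11, 23352232 to 23354588, plus strand). The locus had 0.888, 2.59 and 1.84 FPKM at 6 months and 5.59, 5.31 and 5.71 at 36 months, and pik3c2b 2.21, 3.20 and 2.45, and 4.40, 5.74 and 6.57. Neither overlapped between these ages. The rises were 1.29 (SE 0.26, limma adjusted p = 0.0177) and 0.86 (SE 0.23, adjusted p = 0.0451), and the former was lost without any 1 library of 36 months (adjusted p up to 0.0517), with no filter or when only these ages were fitted.

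The difference between locus and partner was itself fitted, over 1027 pairs of opposite-strand genes or loci. It passed for 5 of the 129 pairs, against 7.40% of the 1027. The count was 1 without 6 months replicate 2, and 2 without 6 months replicate 3, 36 months replicate 1 or 36 months replicate 3. The smallest p-value was that of a locus that crossed the 3′ end of tfpi2, a gene of a secreted serine protease inhibitor, by 99 bases (chromosome 19, 41260380 to 41261087, plus strand). The locus had 5.66, 1.89 and 1.46 FPKM at 6 months, 3.38, 5.16 and 1.24 at 12, 7.99, 12.5 and 6.68 at 24, and 10.7, 6.82 and 21.4 at 36 months. tfpi2 had 15.9, 8.69 and 13.2 at 6 months, 20.6, 13.9 and 6.96 at 12, 7.53, 6.53 and 5.82 at 24, and 4.01, 4.29 and 9.98 at 36.

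At 6 months tfpi2 was above its antisense locus in each library, and at 36 months the locus was above tfpi2 in each. The locus rose against its partner by 2.81 (SE 0.36) on the log2 scale (limma adjusted p = 0.00220), and this call was kept without any 1 library. Taken alone, the locus rose by 1.81 (SE 0.49, adjusted p = 0.0469), and tfpi2 differed by -1.0 (SE 0.38, adjusted p = 0.130). The locus was highest in 36 months replicate 3, the library with the highest level of krt4. The call against the partner was kept without that library. Another locus without a name lay on the strand of tfpi2.

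In the other 4 pairs the locus fell against its partner. These were the loci around tmem196a (-1.78, SE 0.47, limma adjusted p = 0.0442), inside smap1, inside pkig and beside SLC9A3R1 (1 of many). smap1 encodes a GTPase-activating protein of Arf proteins, and its locus had 1.36, 3.73 and 3.43 FPKM at 6 months and 0.474, 0.854 and 0.643 at 36 months, while smap1 had 25.5, 29.7 and 26.0, and 34.0, 27.6 and 35.7. The locus values did not overlap and those of smap1 did; the difference was -1.40 (SE 0.32, adjusted p = 0.0282). For pkig, an inhibitor gene of protein kinase A, it was -0.99 (SE 0.22, adjusted p = 0.0282), and for SLC9A3R1 it was -0.88 (SE 0.21, adjusted p = 0.0349). Each of these 4 calls was lost without any of 4 to 10 libraries taken 1 at a time (adjusted p up to 0.136).

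The third comparison was the correlation of locus and partner over the 12 libraries, on the log2(FPKM + 1) scale. Of 129 pairs, 17 had a positive r that passed and 0 a negative one (permutation test with 100000 draws, Benjamini-Hochberg adjusted p under 0.05 over 1027 pairs). That is 13.2% positive, against 10.6% positive and 0.682% negative of the 1027. The median r was 0.304, against 0.218, and 94 of 129 were above 0. The 12 points share their library, depth and tissue makeup. The median within ages, where each library is taken against its age mean, was 0.296. No pair passed within ages. There the smallest possible exact p was 0.000772 and the smallest adjusted p 0.0792, with 20 positive and 2 negative pairs at an unadjusted p under 0.05, against 12.9% and 1.75% of the 1027.

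**Figure D4:**
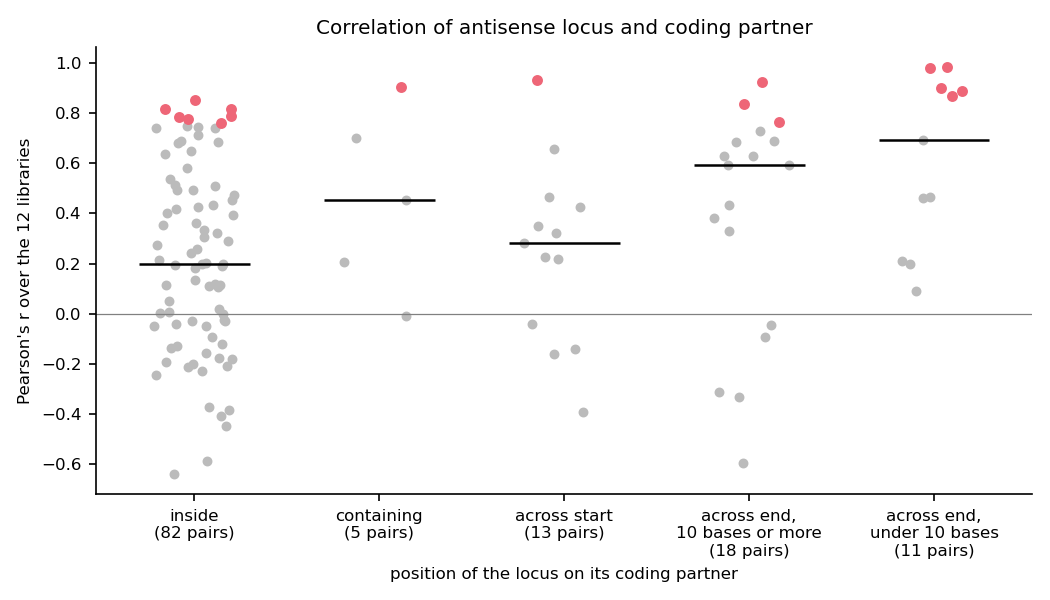
Pearson's r between antisense locus and coding partner over the 12 libraries (vertical) for 129 pairs, by the position of the locus on its partner, with pairs across the 3′ end split by the length of overlap. Red points are the 17 pairs that passed, and bars are medians: 0.200 for loci inside the partner and 0.692 for the 11 that overlap by under 10 bases.

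The share of pairs that passed was largest across the 3′ end. Across the 3′ end 8 of 29 pairs passed with a median r of 0.595, and inside the partner 7 of 82 did with a median of 0.200. Across the 5′ end it was 1 of 13 (median 0.282), and among loci that enclose the partner 1 of 5 (median 0.453). Of the 11 pairs that overlap by 3 or 4 bases, 5 passed (45.5%, median r 0.692), and of the 118 that overlap by 57 bases or more, 12 did (10.2%, median 0.277). The split at short overlaps was chosen after the values were seen and has no test. Among the other opposite-strand pairs, 21.1% of 38 with an overlap under 10 bases passed, 7 positive and 1 negative. Of the 860 with a longer overlap 10.6% passed, 85 positive and 6 negative. These other pairs still include pairs of the same antisense loci with genes or loci other than the partner. Pairs of 2 coding genes passed in 6.65% of 376 (median 0.155).

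The locus with the highest r met the 3′ end of wnt2bb, a gene of a secreted Wnt ligand, by 4 bases (chromosome 8, 27749643 to 27753376, minus strand). It had 14.9, 2.23 and 1.97 FPKM at 6 months, 3.60, 2.94 and 2.98 at 12, 4.30, 5.78 and 2.56 at 24, and 1.88, 6.43 and 9.26 at 36 months. wnt2bb had 46.2, 5.97 and 8.08 at 6 months, 13.0, 7.40 and 9.75 at 12, 13.4, 18.5 and 7.68 at 24, and 5.78, 19.7 and 30.1 at 36. The locus and wnt2bb were both highest at 6 months replicate 1 and next at 36 months replicate 3. The values of both overlapped between all ages, and the F test of the locus did not pass (limma adjusted p = 0.900). Pearson's r was 0.984 (permutation adjusted p = 0.000934) and Spearman's rho 0.951 (permutation p = 2e-05). Without the 2 libraries farthest from the median of wnt2bb r was 0.955, and within ages it was 0.982.

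The next was an unspliced stretch of 740 bases that met the 3′ end of lmod2a by 4 bases (chromosome 25, 27372177 to 27372916, plus strand). lmod2a encodes a leiomodin, which nucleates actin filaments of the sarcomere. The locus had 19.5, 168 and 88.3 FPKM at 6 months, 65.2, 53.0 and 86.6 at 12, 94.8, 77.8 and 59.0 at 24, and 33.1, 47.5 and 31.7 at 36 months. lmod2a had 29.5, 173 and 102, then 67.0, 61.5 and 117, then 118, 98.3 and 77.2, and 35.2, 54.4 and 36.2. The locus and lmod2a were both lowest at 6 months replicate 1 and highest at 6 months replicate 2. Pearson's r was 0.981 (permutation adjusted p = 0.000934), rho 0.979 (permutation p = 1e-05, the smallest that these draws can give), 0.986 without the 2 farthest libraries, and 0.985 within ages. The locus differed by -0.84 at 36 against 6 months (SE 0.59, limma adjusted p = 0.396). On its own strand the nearest gene, wasla, lay 2568 bases away, and its r with the locus was 0.870.

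**Figure D5:**
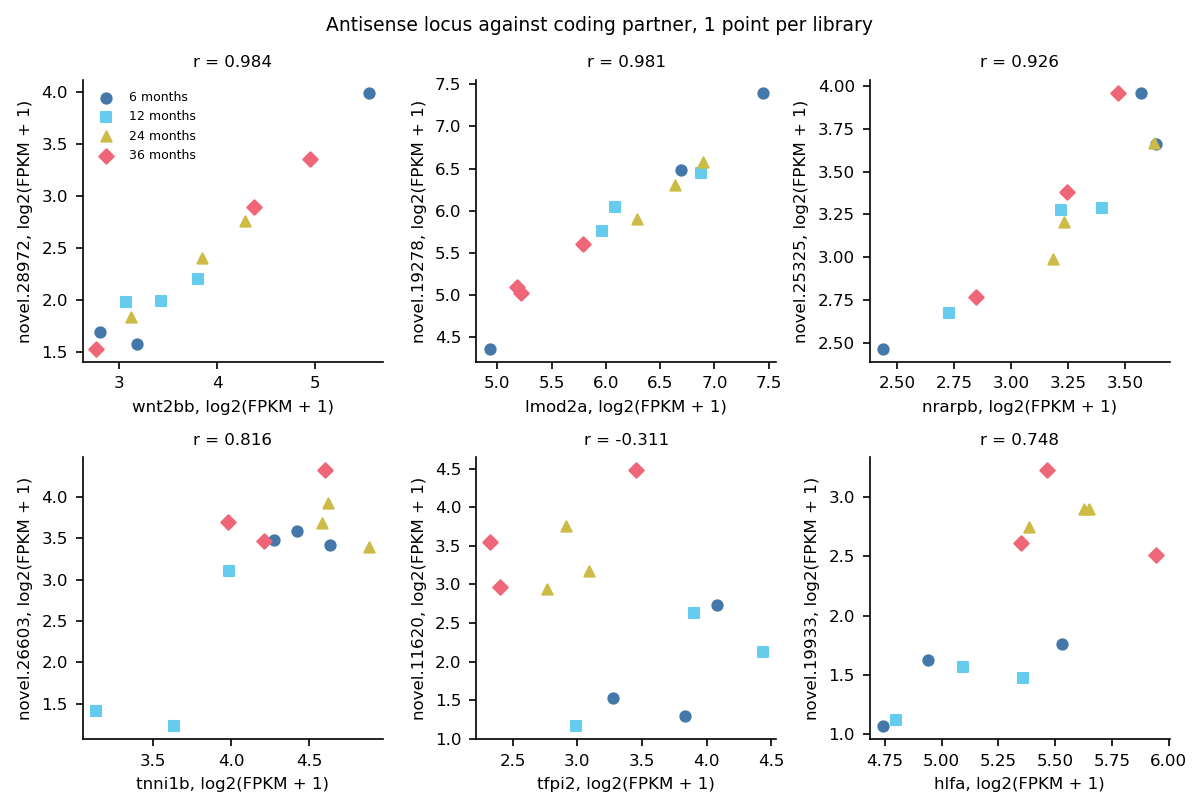
Level of the antisense locus (vertical) against that of its coding partner (horizontal), both as log2(FPKM + 1), for 6 pairs, with 1 point per library and ages by colour and shape. The points of wnt2bb, lmod2a and nrarpb follow a line, those of tnni1b rest on a pair of low libraries at 12 months, those of tfpi2 separate by age without a common slope (r = -0.311), and those of hlfa form a low group at 6 and 12 months and a high group at 24 and 36 months.

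The third in r lay head to head with si:dkey-199f5.6 over 124 bases, with r = 0.933 (permutation adjusted p = 0.00247, rho 0.930 with permutation p = 3e-05). The fourth crossed the 3′ end of nrarpb, a Notch target that dampens Notch signalling, by 172 bases, with r = 0.926 (permutation adjusted p = 0.00187, rho 0.916 with permutation p = 8e-05). Its levels ran from 4.51 to 14.6 FPKM and those of nrarpb from 4.42 to 11.4, lowest for both at 6 months replicate 1. The locus around si:dkey-261h17.1 had r = 0.906 (permutation adjusted p = 0.00187, rho 0.846 with permutation p = 0.00087). Without the 2 farthest libraries r was 0.95, 0.871 and 0.821. All 5 of the highest pairs kept their call without any 1 library.

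Others that passed were the pairs at pik3c2b (r = 0.899), acer2, a ceramidase gene (0.889), tap1, a peptide transporter of antigen presentation (0.869), phf10 (0.853), xpr1a, a phosphate exporter gene (0.839), and TMEM269 (0.817). Of these 6, the pair at xpr1a was lost without 6 months replicate 2 (permutation adjusted p = 0.0716), and that at TMEM269 without 6 months replicate 3 or 24 months replicate 3 (up to 0.0783). At the low end were rock2a (0.760, permutation adjusted p = 0.0455), rcbtb2 (0.766), znf1153 (0.778), sult2st1 (0.783) and tec (0.791). Each of these 5 was lost without any of 2 to 10 libraries taken 1 at a time. For rock2a r fell to 0.315 without 6 months replicate 3 and 24 months replicate 1, so the relation rests on these libraries. For the shorter locus in tnni1b r was 0.816 (adjusted p = 0.0362), and 0.330 without 12 months replicates 1 and 2, so this relation rests on those libraries.

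The lowest r was -0.640, for the locus inside pcxa, a pyruvate carboxylase gene, and it did not pass (permutation adjusted p = 0.131). Within ages it was -0.231. The lowest r within ages were those of the loci inside tmem107 (-0.953) and grasp (-0.844). Neither passed (exact permutation adjusted p = 0.221 and 0.248), and over all libraries their r was 0.000568 and 0.0502. For the locus at tfpi2 r was -0.311 over all libraries (adjusted p = 0.6) and 0.723 within ages (exact permutation adjusted p = 0.375). The locus in hlfa had r = 0.748 with hlfa, which did not pass (permutation adjusted p = 0.0537). This was 0.551 without the 2 farthest libraries and 0.368 within ages.

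Loci that face more than 1 coding gene gave 22 further pairs, of which 1 passed. The locus at pak6b, described above, had r = 0.834 with myh6 (permutation adjusted p = 0.00938, rho 0.734 with permutation p = 0.00865), and 0.665 without the 2 farthest libraries. Within ages r was 0.648 (exact permutation p = 0.152). The call was lost without 12 months replicate 2, the library highest in liver markers (r = 0.735, permutation adjusted p = 0.0663), and with Spearman's rho (adjusted p = 0.0897). myh6 had 1020, 658 and 981 FPKM at 6 months, 2924, 3153 and 1312 at 12, 1300, 977 and 1375 at 24, and 975, 795 and 1712 at 36 months. Both were highest at 12 months replicate 2. With pak6b, at a mean of 1.97 FPKM, r was 0.434 (adjusted p = 0.403).

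Other loci without a name that lie over a gene of their own strand were also tested against the antisense locus they face. There were 67 such pairs among 60 antisense loci. In 65 the other locus lay over the coding partner, and in 2 over another gene. Of the 67, 18 had a positive r that passed and 0 a negative one (26.9%, median r 0.4), against 10.6% and 0.682% of the 1027 pairs (median 0.218). The 18 pairs held 16 antisense loci, 1 of them in 3 pairs. The difference between these shares was not tested. The highest, named after the values were seen, was at foxn3, a forkhead repressor gene. The antisense locus had 0.759, 7.87 and 8.73 FPKM at 6 months, 8.46, 3.83 and 7.99 at 12, 3.11, 3.03 and 1.36 at 24, and 1.83, 2.75 and 1.59 at 36 months. The locus on the strand of foxn3 had 0.349, 4.42 and 3.51, then 3.36, 1.34 and 3.29, then 1.39, 1.25 and 0.643, and 0.571, 1.32 and 0.726. Both were lowest at 6 months replicate 1. r was 0.978 (permutation adjusted p = 0.000934, rho 0.923 with permutation p = 0.0001), 0.985 without the 2 farthest libraries, and 0.979 within ages.

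Finally, tested stranded loci that overlapped no annotated gene of their own strand were set beside the nearest gene of that strand. This was done where that gene was tested and lay within 5 kb. For the antisense loci this gave 37 pairs, of which 4 were positive and 1 negative past the threshold, with a median r of 0.211. The other stranded loci with no annotated gene on their own strand gave 324 pairs, of which 102 were positive and 3 negative, with a median of 0.447. Of all 361 pairs 29.4% were positive. The difference between these shares was not tested.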

How the data were processed

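Hearts of zebrafish at 4 ages were profiled by RNA-seq, 3 libraries an age. The FPKM values per gene are the authors' deposited values; reads were handled with CASAVA 1.8 and HISAT2 2.0.5 on GRCz11, per the submitters' processing notes. The counting tool and its strand setting are not given in the sources used here. The values were whole reads within 0.01 in 100% of cases in each library, with 7333060 to 11145869 reads in genes. The library sizes implied by the deposited values were not the read totals. At 6 months replicate 2 the implied size was 8298190, against 9006181 reads in genes. The ratio of implied sizes to size factors from median ratios of reads between libraries varied by 0.988%.

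Features with a mean FPKM of at least 1 (16223) were tested as log2(FPKM + 1) with limma 3.58.1 in R 4.3.3 (4 age means, eBayes with trend, 8 residual degrees of freedom, Benjamini-Hochberg adjustment, threshold 0.05). Levels within 1027 overlapping opposite-strand pairs were compared by limma on their difference and by correlation with 100000 permutations. Within ages an exact permutation test was used (Python 3.11.15, scipy 1.17.1). The fits were tested on simulated data. Loci were named by largest change, smallest F test p, highest level, highest and lowest called correlation, and role of the partner. The loci, partner groups and lists were chosen with earlier results of these data known. Alternatives are in the closing section.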

Additional observations from a re-analysis of the deposited data

How the results depend on the processing

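Of 82 calls on named loci and their pairs, 0 changed sign under the alternatives run for each, and 19 were kept without any 1 library. No filter ended 47 of 58 calls, voom 32 of 58, only the ages compared 32 of 48, the replicate block 30 of 63, and a pseudocount of 0.1 15 of 82. eBayes without trend ended 6 of 63, Spearman's rho 4 of 19 and quantile normalization 2 of 82. Counts of loci at 36 against 6 months were 6 with no filter, 12 with a minimum mean of 5 FPKM, 17 with voom on the recovered reads and 9 when only the ages compared were fitted, against 30. For 12 against 6 months the count was 0 with a pseudocount of 0.1, no filter, the minimum of 5, the replicate block, eBayes without trend and only the ages compared, against 1. For 24 against 6 months it was 0 with no filter, voom or only the ages compared, and 1 with the minimum of 5 or the replicate block, against 4. For 24 against 12 months it was 0 with the minimum of 5, 1 with voom and 8 with only the ages compared, against 3. For 36 against 12 months it was 3 with no filter, 5 with the minimum of 5, 7 with voom and 5 with only the ages compared, against 11. For 36 against 24 months it was 1 with the pseudocount of 0.1, 0 with no filter, the replicate block or voom, 2 with the minimum of 5 and 7 with only the ages compared, against 4. The F test passed in 3 with no filter, 8 with the minimum of 5, and 10 with the replicate block or voom, against 19. The trend passed in 10 with no filter or the minimum of 5 and 20 with voom, against 32. Differing pairs were 3 of the 26 left with the minimum of 5 and 1 of 129 with only the ages compared, against 5 of 129. Correlated pairs were 10 of the 26 with the minimum of 5, against 17 of 129. A minimum mean of 2 or 5 FPKM left 193 or 76 of the 316 loci. The cause of these moves was not tested.

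Without any 1 library, the counts ranged from 10 to 34 at 36 against 6 months, 0 to 2 at 12 against 6, 0 to 7 at 24 against 6, 0 to 7 at 24 against 12, 1 to 21 at 36 against 12 and 0 to 8 at 36 against 24. They ranged from 7 to 36 for the F test, 17 to 46 for the trend, 1 to 7 for differing pairs and 12 to 18 for correlated pairs.

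The labels do not say whether equal replicate numbers mark a pair or a batch. Same-numbered libraries of different ages had correlations of -0.154 to 0.106 over 18 pairs, 1 of them above 0.1. Correlations of this size cannot exclude a shared batch. With the replicate block 21 loci passed at 36 against 6 months, 2 at 24 against 12, 8 at 36 against 12 and 26 for the trend, and 4 pairs differed.

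Depth limits the low loci: 75 of 316 had a median under 10 reads per library, where 1 read is a large part of the value.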
